A study of Mus musculus with 7 samples.

Results

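Transcript levels of 10 genes that govern entry into and passage through the cell cycle were followed across 7 mouse libraries of reprogrammed and pluripotent cells. The genes were the D-type cyclins Ccnd1, Ccnd2 and Ccnd3, the E-type cyclins Ccne1 and Ccne2, Ccna2, Ccnb1, the inhibitor gene Cdkn1b, Rb1 and E2f1. They were chosen by symbol, and all 10 were matched to an Ensembl gene among the 29267 genes of each expression table. Levels are given as TPM, an abundance unit that divides each read count by transcript length and scales every library to the same total.

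Mouse embryonic fibroblasts of the OG2 strain, which carry green fluorescent protein (GFP) under an Oct4 promoter, were transduced with retroviral Oct4, Sox2, Klf4 and c-Myc and cultured either in mES medium (serum, LIF and vitamin C) or in 5C medium (N2, bFGF, LIF and vitamin C, without serum). On day 15 the cells were sorted by GFP, which gave mES-Oct4GFP+ and mES-Oct4GFP- for the first medium and 5C-Oct4GFP+ and 5C-Oct4GFP- for the second, all at passage 0 per the labels. 5C-Oct4GFP+ cells were also moved to naive medium (LIF, the GSK3 inhibitor CHIR99021 and the MEK inhibitor PD0325901) or to primed medium (bFGF and activin A, then CHIR99021 and IWR1), which gave 5C-Oct4GFP+ (naive) and 5C-Oct4GFP+ (primed). R1 ESCs-primed came from R1, an embryonic stem cell line that was not transduced, in the same primed medium. The labels give 20 passages for these 3 cultures. Medium and passage number therefore cannot be told apart where 5C-Oct4GFP+ is compared with the cultures grown from it. For the converted cells, a legend of the study gives days in medium followed by 20 further passages, and another gives the days in medium only. The methods state that R1 cells were brought to the primed state on feeder fibroblasts and later kept on plates coated with serum. They do not state whether feeders were used for 5C-Oct4GFP+ (primed). Each GFP-negative library holds every cell that the reporter did not mark and may be of mixed make-up, and retroviral factors are shared by all libraries except R1 ESCs-primed.

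Each condition had 1 library, so no difference was tested. The 95% intervals below come from read counts and cover counting error only. A gene was counted as 2-fold apart when log2(TPM + 1) differed by at least 1 and TPM was at least 1 in either library. Total expected counts ran from 6108252 to 11496615 per library. Of 10 pluripotency markers, 7 were higher in GFP-positive than in GFP-negative cells in mES medium and 9 in 5C medium, with Zfp42 at 337.06 against 1.31 and 219.41 against 14.11 TPM. The exceptions were Sox2 in both media and Pou5f1 and Lin28a in mES medium, with Pou5f1 at 1321.12 against 3640.40 TPM. Pou5f1 and Sox2 are also retroviral factors, whose reads were not told apart here. In the 2 primed libraries Zfp42 was at 0.00 and 6.02 TPM, but Pou5f1 was at 1698.07 and 1502.87 TPM and Utf1 at 527.53 and 480.58 TPM. A list of 10 fibroblast markers summed to 558.8 TPM in mES-Oct4GFP-, 276.2 in 5C-Oct4GFP-, 254.3 in R1 ESCs-primed and 100 TPM in the other primed library, but to 11.7 to 19.2 TPM in the other 3 libraries, and none of the 10 was at 0 in any library. Keratinocyte markers summed to 87.3 and 93.0 TPM in mES-Oct4GFP- and 5C-Oct4GFP- and to at most 10.3 TPM elsewhere.

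D-type cyclins bind CDK4 and CDK6 in response to growth signals, and the complexes phosphorylate the retinoblastoma protein RB, which otherwise holds E2F transcription factors inactive. Freed E2F activates genes for DNA replication and for E-type and A-type cyclins, which act with CDK2, and cyclin B1 with CDK1 then drives mitosis. p27, the product of Cdkn1b, binds and inhibits cyclin-CDK2 complexes. Mouse embryonic stem cells are known for a short G1 phase and for high cyclin E-CDK2 activity, and their G1 phase lengthens on differentiation.

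All 10 genes spanned at least 2-fold between their lowest and highest library, as did 77.7% of the 17733 genes that reached 1 TPM in any library. The median range was 1.81 on the log2 scale for the 10 genes and 1.55 for all. Ccnd2 and Rb1 had the widest ranges, at 375-fold (250 to 592) and 12.1-fold (10.4 to 14.2), and Ccnd3 had the narrowest, at 2.29-fold (2.13 to 2.46).

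**Figure D1:**
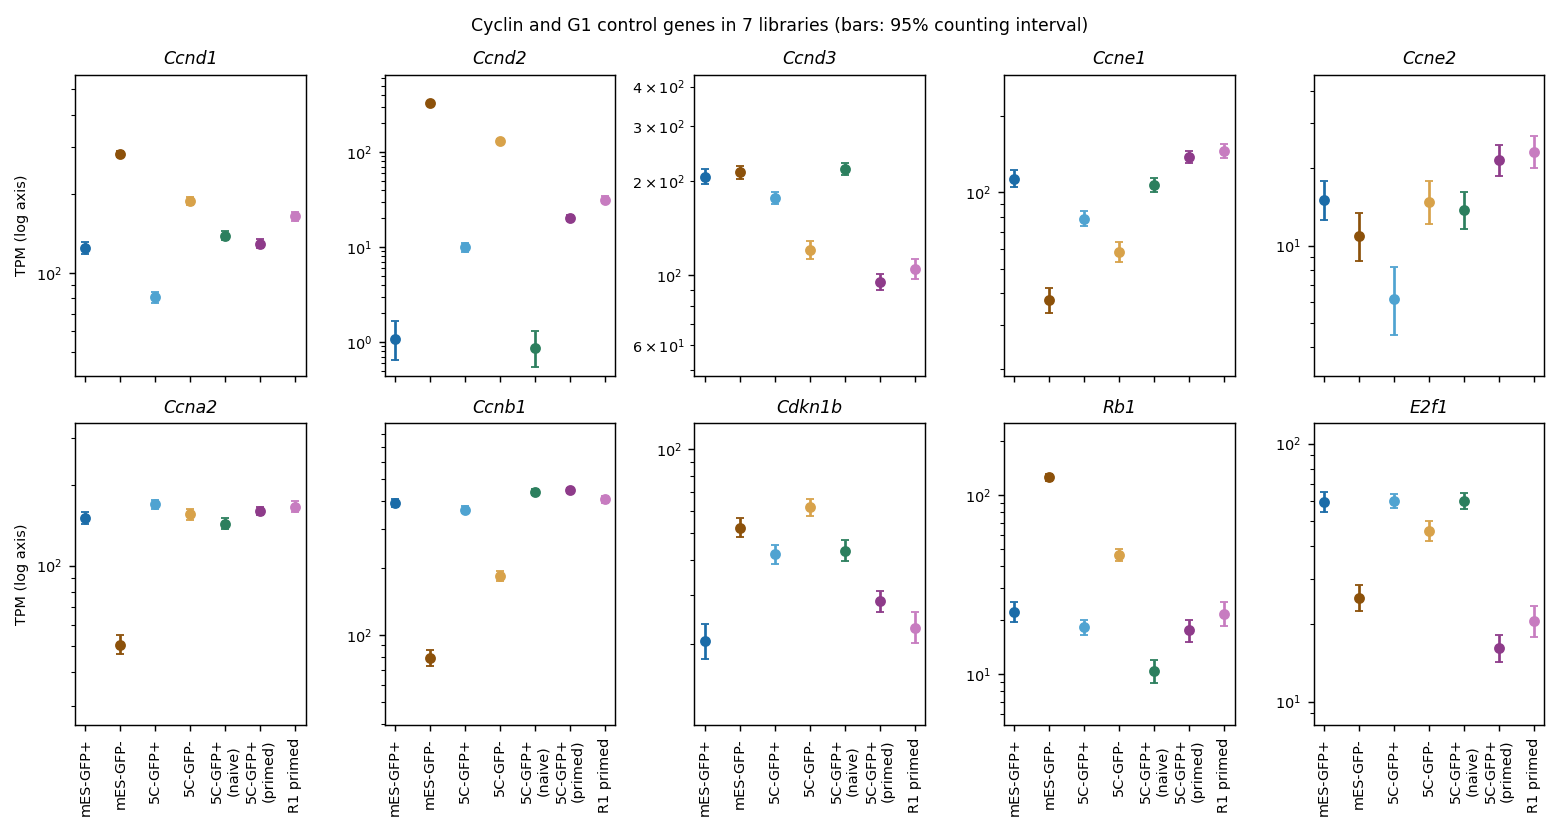
TPM of the 10 genes (log axis, scaled separately for each gene) in the 7 libraries on the horizontal axis, with 95% counting intervals as bars. Ccnd2 runs from 0.87 TPM in 5C-Oct4GFP+ (naive) to 326.38 TPM in mES-Oct4GFP-, whereas Ccna2 stays between 143.01 and 169.53 TPM in 6 libraries and is at 50.80 TPM in mES-Oct4GFP-.

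Ccnd2 (ENSMUSG00000000184, GRCm38 chr6:127125162-127152193, minus strand) encodes cyclin D2. Its level was 1.07 TPM (GFP-positive) and 326.38 (GFP-negative) after mES medium, 9.96 and 131.74 after 5C medium, 0.87 after naive medium, and 20.36 and 31.50 in the 2 primed libraries, the latter of R1 cells. The GFP-negative libraries were thus the highest, the primed libraries were intermediate, and mES-Oct4GFP+ and the naive library were lowest, with 20 and 23 reads. These last were the only neighbours in the order of levels whose ratio, 1.23 (0.641 to 2.34), was not separated from 1 by counting error. Within mES medium the GFP-negative level was 305 times the GFP-positive level, and within 5C medium 13.2 times. In bulk libraries such as these, fewer cells of a type and less RNA per cell cannot be told apart.

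Among GFP-positive cells of day 15, Ccnd2 was 9.31-fold higher (5.93 to 15.4) in 5C than in mES medium, with fibroblast marker sums of 11.7 and 18.3 TPM. Of that list, Thy1 (5.16 against 0.72 TPM) and Dcn (0.87 against 0.35 TPM) were higher in 5C medium, and all others were lower. The sums of other marker lists were higher in the 5C library. They were 6.18 against 1.67 TPM for keratinocytes, 33.31 against 10.44 for endothelial cells and 44.13 against 17.24 for macrophages. Most of the macrophage sum was Cd68, at 42.67 against 12.86 TPM. Of the other macrophage markers, Ptprc was higher, at 0.29 against 0.00 TPM, but Fcer1g, Tyrobp and Csf1r were lower. Tek gave most of the endothelial sum, at 22.66 against 7.49 TPM. The part of any of these cell types in this Ccnd2 difference was not tested. Transfer of 5C-Oct4GFP+ cells to naive medium went with a level 11.4-fold lower, and transfer to primed medium with a level 2.04-fold higher (1.79 to 2.34), which was 0.96 on the log2(TPM + 1) scale. Primed exceeded naive by 23.4-fold (15.5 to 37.2). The study names Ccnd2 among its markers of the primed state, chosen on these libraries, so this order is not independent evidence for that use. The 4 libraries with most Ccnd2 were also, in the same order, the 4 with the highest fibroblast marker sums, and the part of fibroblasts in the Ccnd2 level was not tested.

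Ccnd1 (ENSMUSG00000070348, chr7:144929931-144939925, minus strand) encodes cyclin D1, the D-type cyclin best known as a target of mitogen signalling. It was at 124.67 TPM in GFP-positive and 284.01 in GFP-negative cells from mES medium, 80.80 and 187.73 in those from 5C medium, 138.42 in the naive library, 129.13 in the primed library and 164.17 in R1 ESCs-primed. As with Ccnd2, both GFP-negative libraries stood above all others. GFP-positive cells were 2.28-fold lower than GFP-negative cells in mES medium and 2.32-fold lower in 5C medium, and the 5C library was lower than its mES counterpart in both fractions, by 1.54-fold and 1.51-fold. Only 5C-Oct4GFP+ (primed) and mES-Oct4GFP+ were neighbours within counting error, at a ratio of 1.04 (0.973 to 1.10).

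Ccnd3 (ENSMUSG00000034165, chr17:47505051-47599691, plus strand) encodes cyclin D3 and had another order. Its level was 205.97 TPM (GFP-positive) and 213.36 (GFP-negative) after mES medium, 176.60 and 120.63 after 5C medium, 218.44 after naive medium, and 95.41 and 104.93 in the 2 primed libraries, the latter of R1 cells. The naive library and both mES libraries were highest and within counting error of their neighbours among these 3, and the 2 primed libraries were lowest. Primed was 2.29-fold lower than naive. In mES medium the 2 fractions differed by -0.05 on the log2(TPM + 1) scale, a sign that turned with FPKM, median-ratio rescaling or counts without length correction (CPM), which gave 0.07, 0.10 and 0.14.

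The make-up of the D-type cyclin transcripts differed accordingly. The 3 genes summed to 331.7 TPM in GFP-positive and 823.8 in GFP-negative cells from mES medium, 267.4 and 440.1 in those from 5C medium, 357.7 in the naive library, 244.9 in the primed library and 300.6 in R1 ESCs-primed. Ccnd3 made up 61.1% to 66.1% of the sum in the naive library and the 2 GFP-positive libraries of day 15. Ccnd1 made up 52.7% and 54.6% in the primed libraries. Ccnd2 gave the largest share, 39.6%, in mES-Oct4GFP-, and 29.9% in 5C-Oct4GFP-, against 0.243% in the naive library.

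**Figure D2:**
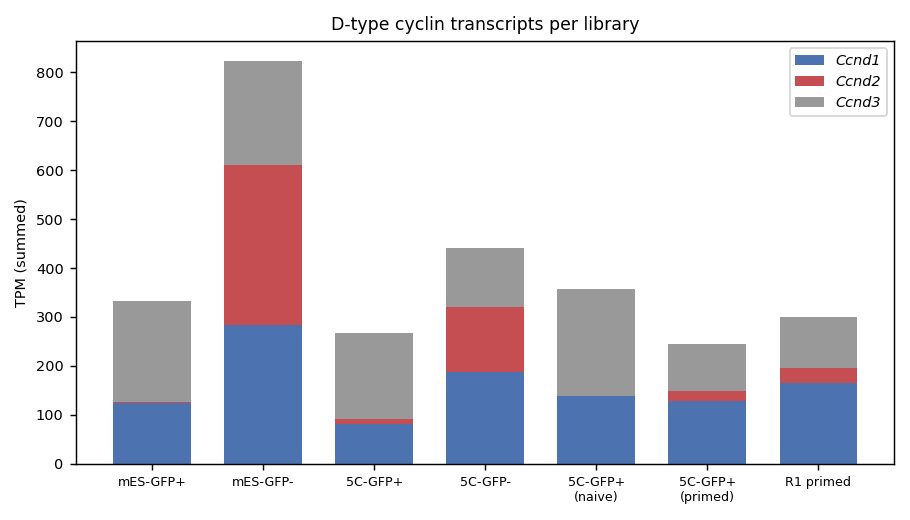
Summed TPM of Ccnd1, Ccnd2 and Ccnd3 (stacked bars from 0) in each library. Ccnd2 takes 39.6% of 823.8 TPM in mES-Oct4GFP- and 0.323% of 331.7 TPM in mES-Oct4GFP+.

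Ccne1 (ENSMUSG00000002068, chr7:38097984-38107534, minus strand) encodes cyclin E1, which activates CDK2 at the start of S phase. It was at 113.38 TPM (GFP-positive) and 37.52 (GFP-negative) after mES medium, 78.73 and 58.09 after 5C medium, 106.96 after naive medium, and 137.79 and 145.98 in the 2 primed libraries, the latter of R1 cells. Unlike for Ccnd1, the GFP-negative libraries were lowest. The primed libraries were highest and within counting error of each other, at 1.06 (0.980 to 1.15). GFP-positive exceeded GFP-negative cells by 3.02-fold (2.64 to 3.46) in mES medium and by 1.36-fold (1.21 to 1.52) in 5C medium.

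Ccne2 (ENSMUSG00000028212, chr4:11191351-11204779, plus strand), the gene of cyclin E2, was lower than Ccne1 in every library. Its level was 15.03 TPM in GFP-positive and 10.89 in GFP-negative cells from mES medium, 6.17 and 14.84 in those from 5C medium, 13.71 in the naive library, 21.53 in the primed library and 23.27 in R1 ESCs-primed. It was lowest in 5C-Oct4GFP+, where it rested on 44 reads, and highest in the primed libraries. Against 5C-Oct4GFP+, the naive library was 2.22-fold (1.59 to 3.21) and the primed library 3.49-fold (2.53 to 4.96) higher. Ccne2 shares 609 exon bases with Ints8 on the other strand, which was at 50.73 to 87.77 TPM. The library kit did not mark strand, so reads of the 2 genes in that stretch cannot be told apart. Exons of Ccnd1, Ccnd2, Ccnd3 and Ccna2 likewise overlap those of LTO1, 9330179D12Rik, Bysl and Exosc9, in that order. LTO1 was at 10.76 to 25.28 TPM, Bysl at 17.76 to 56.89 and Exosc9 at 38.29 to 101.65, and 9330179D12Rik reached at most 0.71 TPM.

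Ccna2 (ENSMUSG00000027715, chr3:36564865-36572150, minus strand) encodes cyclin A2, of S phase and G2. It was at 151.11 TPM (GFP-positive) and 50.80 (GFP-negative) after mES medium, 169.53 and 155.25 after 5C medium, 143.01 after naive medium, and 159.66 and 166.00 in the 2 primed libraries, the latter of R1 cells. mES-Oct4GFP- stood apart, and each of the other 6 was within counting error of its neighbour in the order. In mES medium the GFP-positive level was 2.97-fold that of the GFP-negative cells (2.71 to 3.27), and in 5C medium 1.09-fold (1.03 to 1.16).

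Ccnb1 (ENSMUSG00000041431, chr13:100778650-100786570, minus strand) encodes cyclin B1, the partner of CDK1 in mitosis. Its level was 392.19 TPM in GFP-positive and 78.73 in GFP-negative cells from mES medium, 366.23 and 184.44 in those from 5C medium, 438.24 in the naive library, 445.91 in the primed library and 407.73 in R1 ESCs-primed. Both GFP-negative libraries lay below the other 5, which stayed between 366.23 and 445.91 TPM. GFP-positive exceeded GFP-negative cells by 4.98-fold (4.55 to 5.46) in mES medium and 1.99-fold (1.87 to 2.11) in 5C medium. In GFP-negative cells 5C exceeded mES medium by 2.34-fold for Ccnb1 and 3.06-fold for Ccna2, while in GFP-positive cells the ratios of 5C to mES were 0.934 and 1.12.

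Cdkn1b (ENSMUSG00000003031, chr6:134920401-134925513, plus strand) encodes p27. It was at 20.48 TPM (GFP-positive) and 52.18 (GFP-negative) after mES medium, 41.94 and 61.71 after 5C medium, 43.26 after naive medium, and 28.52 and 22.93 in the 2 primed libraries, the latter of R1 cells. The GFP-negative libraries were highest, and mES-Oct4GFP+ and R1 ESCs-primed were lowest and within counting error of each other. 5C-Oct4GFP+ exceeded mES-Oct4GFP+ by 2.05-fold (1.74 to 2.42), which was 1.00 on the log2(TPM + 1) scale, just under the 2-fold threshold before rounding. It was past it at 1.03 with a pseudocount of 0.1 and at 1.05 with median-ratio rescaling. The naive library was at 1.03-fold (0.919 to 1.16) of the level in 5C-Oct4GFP+, and the primed library was 1.47-fold lower than 5C-Oct4GFP+.

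Set against each other, Ccne1 and Cdkn1b gave a ratio of TPM of 5.54 in GFP-positive and 0.719 in GFP-negative cells from mES medium, 1.88 and 0.941 in those from 5C medium, 2.47 in the naive library, 4.83 in the primed library and 6.37 in R1 ESCs-primed. Cyclin E1 transcripts were thus outnumbered by those of Cdkn1b in the GFP-negative libraries only. In 5C-Oct4GFP- the counting intervals of Ccne1 and Cdkn1b overlapped, at 52.9 to 63.6 and 57.4 to 66.3 TPM. Transcripts of Cdkn1a, another CDK inhibitor gene, outnumbered those of Ccne1 in every library except 5C-Oct4GFP+ (primed), where they were at 95.86 against 137.79 TPM.

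Ccnb1 and Cdkn1b, which differed between the sorted fractions in opposite directions, are shown with the bases that precede them in the reference. RefSeq windows before the gene start (GRCm38.p6) were found for 5 of the 10 genes, namely Cdkn1b, Ccnb1, Ccne1, Ccnd3 and E2f1. Bases inside the GENCODE gene were left out, which left none for E2f1. Capitals mark CCAAT boxes (CCAAT) and E2F sites (TTCCCGC or TTGGCGC or TTCGCGC or TTGCCGC). Both strands were searched, also for the CHR element (TTTGAA), which neither window held. The Cdkn1b window is chr6:134920151-134920400, plus strand, and that of Ccnb1 is chr13:100786571-100786736, minus strand.
Cdkn1b: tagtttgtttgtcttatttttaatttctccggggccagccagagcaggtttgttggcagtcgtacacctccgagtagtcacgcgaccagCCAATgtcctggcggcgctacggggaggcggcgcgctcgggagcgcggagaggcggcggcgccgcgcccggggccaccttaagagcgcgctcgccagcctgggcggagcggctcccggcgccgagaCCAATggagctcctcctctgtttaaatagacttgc
Ccnb1: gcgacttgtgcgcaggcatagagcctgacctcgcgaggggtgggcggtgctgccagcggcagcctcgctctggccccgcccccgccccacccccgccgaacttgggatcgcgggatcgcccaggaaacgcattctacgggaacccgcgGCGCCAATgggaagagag
The 250 bases of Cdkn1b held CCAAT boxes from bases 90 and 216, counted from 1 at the 5′ end. The 166 bases of Ccnb1 held a CCAAT box from base 152 and, overlapping it, an E2F site from base 149 that reads TTGGCGC on the other strand. Of 32851 promoter windows, 33.8% held a CCAAT box and 7.89% an E2F site within 250 bases, and 22.4% and 4.83% within the first 166. The CHR element was in 16.0% and 11.9%. The bases of Ccne1 and Ccnd3 outside their genes, 206 and 250 in number, held none of the 3 motifs. A match is a run of letters and was not tested as a binding site.

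Rb1 (ENSMUSG00000022105, chr14:73183673-73325822, minus strand) encodes RB. Its level was 22.24 TPM (GFP-positive) and 125.35 (GFP-negative) after mES medium, 18.16 and 46.18 after 5C medium, 10.32 after naive medium, and 17.48 and 21.58 in the 2 primed libraries, the latter of R1 cells. Both GFP-negative libraries stood above the rest, by 5.64-fold over GFP-positive cells in mES medium and 2.54-fold in 5C medium, and the naive library was lowest. From mES-Oct4GFP+ down to 5C-Oct4GFP+ (primed), the 4 libraries between 17.48 and 22.24 TPM were each within counting error of their neighbour.

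The order of Rb1 among the lower libraries depended on transcript length. RSEM divides by an effective length, which is the mean over the transcripts of a gene weighted by their estimated abundance. For Rb1 it was 1868 and 1901 bases in the 2 primed libraries, against 3225 to 4093 in the other 5. The tables list 5 Rb1 transcripts, of which 1 is coding, at 4656 bases, and the other 4 are 355 to 946 bases long. Primed exceeded naive by 0.71 on the log2(TPM + 1) scale but was lower, at -0.26, in CPM, the counts scaled to the library total without the length correction, and primed against 5C-Oct4GFP+ went from -0.05 to -1.14. Among the members only Ccne2 varied as much in effective length, 2.08-fold against 2.19-fold for Rb1, while 17.4% of all detected genes varied by over 1.5-fold. With CPM Ccne2 was 4.18-fold and 4.44-fold higher in the naive and primed libraries than in 5C-Oct4GFP+. Parts of Rb1 exons are shared with Rcbtb2 and Lpar6 on the other strand, which were at 8.78 to 54.68 and 1.67 to 13.01 TPM. Reads in those parts cannot be told apart either.

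**Figure D3:**
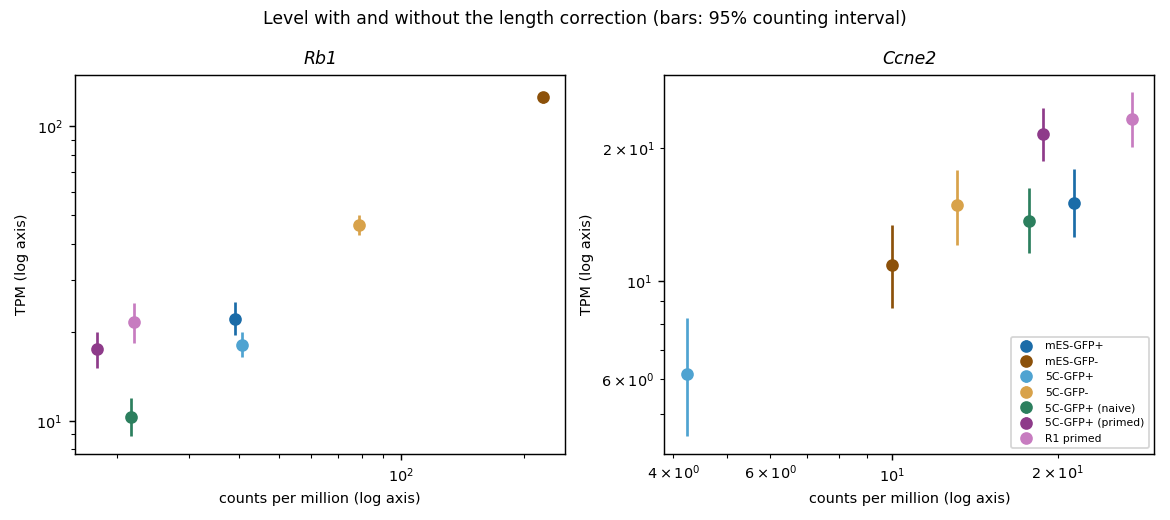
TPM (vertical, log axis, bars are 95% counting intervals) against CPM (horizontal, log axis) for Rb1 and Ccne2 in the 7 libraries. The primed libraries have the fewest Rb1 reads together with naive, at 17.9 to 22 CPM, but 17.48 and 21.58 TPM against 10.32 in the naive library.

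E2f1 (ENSMUSG00000027490, chr2:154559407-154569892, minus strand) encodes an activating E2F. It was at 59.45 TPM in GFP-positive and 25.30 in GFP-negative cells from mES medium, 59.91 and 45.85 in those from 5C medium, 59.91 in the naive library, 16.20 in the primed library and 20.48 in R1 ESCs-primed. The 2 GFP-positive libraries of day 15 and the naive library had levels within counting error of each other, and the primed libraries were lowest. Primed was 3.70-fold lower than both naive and 5C-Oct4GFP+, with intervals of the primed-to-other ratio of 0.235 to 0.311 and 0.235 to 0.310. This set E2f1 apart from Ccne1, Ccna2 and Ccnb1, which were at 1.29, 1.12 and 1.02 times their naive level in the primed library. With another scaling Ccna2 and Ccnb1 changed sign in that comparison, to -0.02 with median-ratio rescaling for Ccna2 and to -0.04 to -0.18 for Ccnb1.

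Between the sorted fractions in mES medium, 4 members were 2-fold higher in GFP-positive cells (Ccne1, Ccna2, Ccnb1 and E2f1), where 17.9% of genes were, and 4 were 2-fold lower (Ccnd1, Ccnd2, Cdkn1b and Rb1), where 28.8% were. The median member differed by 0.19 and the median gene by -0.15. In 5C medium no member was 2-fold higher in GFP-positive cells, against 8.45% of genes, and 4 were lower (Ccnd1, Ccnd2, Ccne2 and Rb1), against 22.6%. The medians were -0.21 and -0.25. Ccnb1 was just short of it, at 0.99, and was past the threshold at 1.08 with FPKM, 1.21 with median-ratio rescaling and 1.02 with CPM. Ccnd1 and Ccne2 lost the call with median-ratio rescaling, at -0.98 and -0.94. Ccne2 also lost it with FPKM, at -0.98, and Rb1 with CPM, at -0.94. Of the 4 lower members, only Ccnd2 kept the call in every setting.

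Between the media, 1 member was higher (Ccnd2) and 1 lower (Ccne2) in 5C-Oct4GFP+ than in mES-Oct4GFP+, beside 13.7% and 13.5% of genes. In GFP-negative cells 2 were higher in 5C medium (Ccna2 and Ccnb1) and 2 lower (Ccnd2 and Rb1), beside 9.68% and 10.1%. These 4 comparisons share their libraries in pairs.

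Naive medium went with 1 member higher (Ccne2) and 1 lower (Ccnd2) than in 5C-Oct4GFP+, beside 10% and 17.5% of genes, and primed medium with 1 higher (Ccne2) and 1 lower (E2f1), beside 13.7% and 16.1%. Both share the 5C-Oct4GFP+ library. Between primed and naive cultures 1 member was higher in primed (Ccnd2), beside 22.2% of genes, and 2 were lower (Ccnd3 and E2f1), beside 16.7%. Between 5C-Oct4GFP+ (primed) and R1 ESCs-primed no member was 2-fold apart, beside 2.30% of genes higher and 5.09% lower. The widest member differences there were -0.61 for Ccnd2 and -0.34 for Ccnd1. Fibroblast marker sums were 100 and 254.3 TPM in those 2 libraries, and their part in these differences was not tested.

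**Figure D4:**
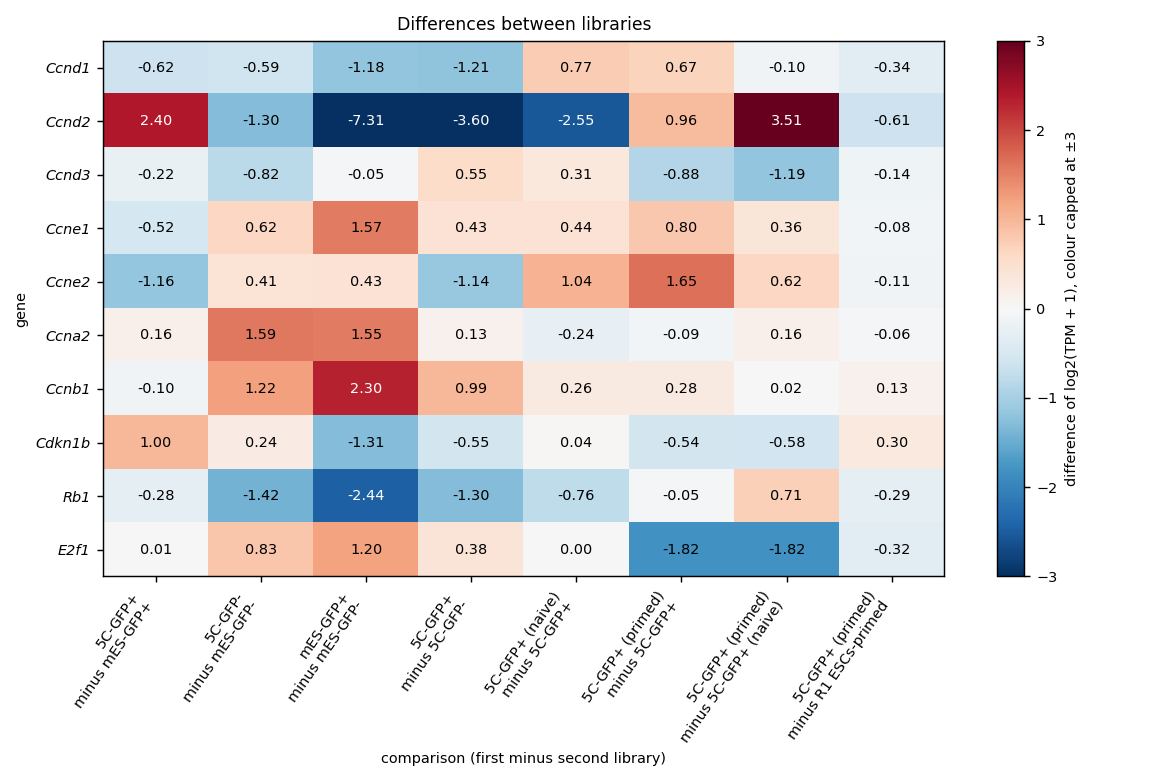
Difference of log2(TPM + 1), first minus second library (red higher, blue lower, colour capped), for the 10 genes in 8 comparisons. The column of mES-Oct4GFP+ minus mES-Oct4GFP- holds the widest value, -7.31 for Ccnd2, and every value of 5C-Oct4GFP+ (primed) minus R1 ESCs-primed lies between -0.61 and 0.30.

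The other genes of the pathway were described by 7 lists, of CDKs and their regulators by phosphorylation, CDK inhibitors, the RB and E2F family, other cyclins, ubiquitin ligases of the cycle, G1/S targets of E2F and G2/M genes. In mES medium 21 of 23 G1/S targets and 19 of 21 G2/M genes were 2-fold higher in GFP-positive cells and none was lower, with medians of 1.90 and 1.61 where the median gene was at -0.15 and 17.9% of genes were higher. Mcm10, a replication factor, was 5.93-fold higher and Mybl2, a transcription factor of proliferating cells, 8.94-fold. At the other end of these lists, Rrm1 was 1.34-fold and Mki67 1.28-fold higher. Of 12 CDKs and their regulators 6 were 2-fold higher and 2 lower. Cdk1 and Cdk2, partners of the cyclins of S phase and mitosis, were among the 6. Cdk1 was at 473.29 against 134.87 TPM and Cdk2 at 105.16 against 41.68 TPM. The partners of the D-type cyclins differed in direction. Cdk6 was 2-fold lower, at 10.77 against 24.73 TPM, but Cdk4 was higher, short of 2-fold, at 1387.05 against 798.06 TPM. The other 4 of the 6 included the CDK-activating phosphatase genes Cdc25a (3.57-fold) and Cdc25c (3.12-fold). They also included the genes of the CDK-inhibiting kinases Wee1 (3.33-fold) and Pkmyt1 (2.44-fold). Cdc25b was lower, at 15.93 against 41.20 TPM.

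Of 6 other CDK inhibitor genes 4 were 2-fold lower in GFP-positive cells in mES medium and none was higher, where 28.8% of genes were lower. Cdkn1a, the gene of p21, was at 296.16 against 777.95 TPM, Cdkn2a at 48.98 against 235.95, Cdkn2b at 6.37 against 31.94 and Cdkn1c, the gene of p57, at 3.30 against 73.23. In 5C medium, where 22.6% of genes were lower, so were 4 of 6, namely Cdkn1c, Cdkn2a, Cdkn2b and Cdkn2c, the last at 1.97 against 20.17 TPM. Rbl2, which encodes the RB relative p130, was 2-fold lower in GFP-positive cells in both media, at 13.62 against 36.58 TPM and 6.13 against 22.79 TPM. E2f4 was higher in 5C medium, at 205.31 against 98.41 TPM.

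Between the fractions in 5C medium, 2 of 23 G1/S targets and 3 of 21 G2/M genes were 2-fold higher in GFP-positive cells, beside 8.45% of all genes. Both lists had a median of 0.32 where the median gene was at -0.25. At the upper ends, Hells was 2.80-fold and Mybl2 8.90-fold higher in GFP-positive cells. At the lower ends, Tk1 was at 105.38 against 137.30 TPM and Mki67 at 90.78 against 157.59 TPM, both lower in GFP-positive cells but short of 2-fold. Whether the lists differed between the media was not tested. Among GFP-negative cells, 5C medium held 14 of 23 and 17 of 21 at 2-fold higher levels than mES medium, none lower, with medians of 1.01 and 1.24 beside 0.03 for all genes, of which 9.68% were higher. Cdk1 was 2.14-fold, Cdc25a 2.05-fold, Cdc25c 2.59-fold and Pkmyt1 2.07-fold higher there. Rbl1, which encodes p107, was 2.95-fold higher, E2f2 and E2f7 2.20-fold and E2f8 2.32-fold. Of the 6 inhibitor genes, Cdkn2c was 6.75-fold higher (4.22 to 11.3), at 20.17 against 2.99 TPM, and Cdkn1a and Cdkn2a were lower, at 240.53 against 777.95 TPM and 72.36 against 235.95 TPM. The fibroblast marker sum was also lower, at 276.2 against 558.8 TPM. Its markers did not all go that way, since Thy1, Dcn and Lum were higher, with Thy1 at 53.29 against 8.73 TPM. The part of fibroblasts in these differences was not tested.

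**Figure D5:**
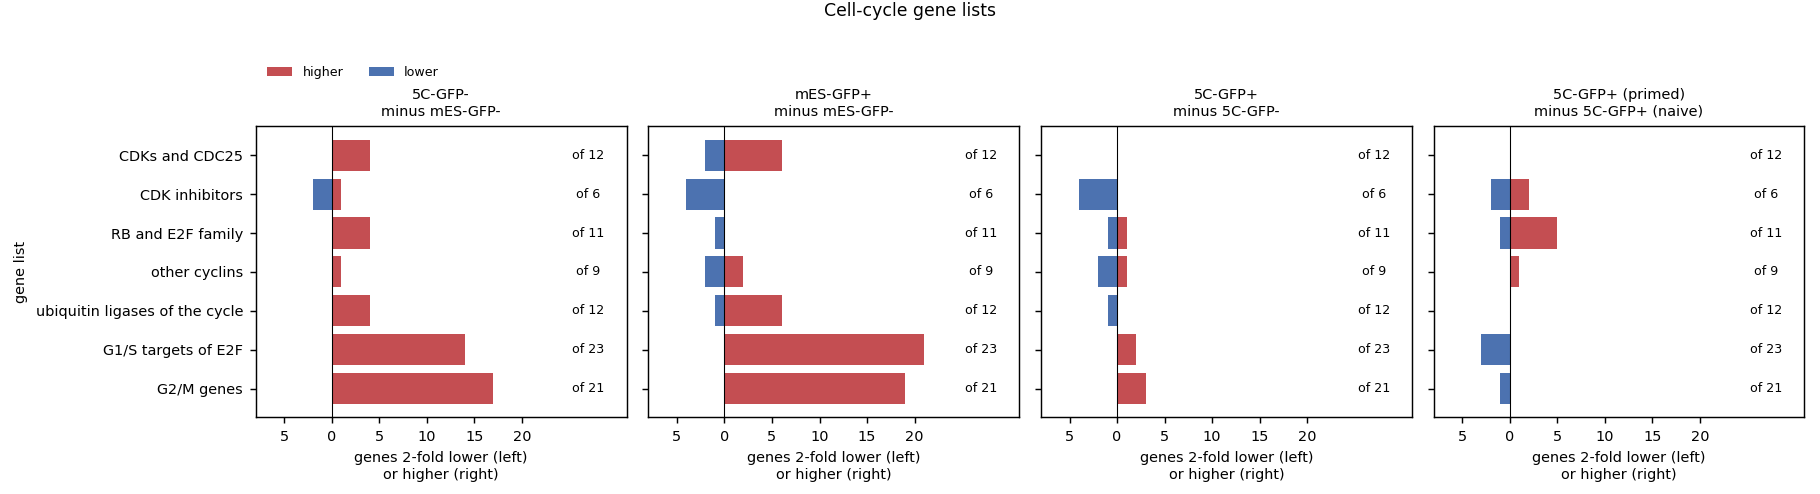
Number of genes at least 2-fold lower (left, blue) or higher (right, red) in each of 7 pathway lists, with the number detected at the right of each bar, in 4 comparisons. The mES-Oct4GFP+ minus mES-Oct4GFP- panel has 21 of 23 G1/S targets and 19 of 21 G2/M genes to the right, and the 5C-Oct4GFP+ minus 5C-Oct4GFP- panel 2 and 3.

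Between primed and naive cultures 5 of 11 genes of the RB and E2F family were 2-fold higher in primed and 1 lower, beside 22.2% and 16.7% of all genes. The list had a median of 0.83 and all genes 0.14. The 5 were E2f3, E2f5, E2f6, E2f7 and E2f8, with E2f6, a repressor, at 53.41 against 12.17 TPM, and the lower gene was Rbl2. E2f1 thus differed in the opposite direction from these relatives. No G1/S target was 2-fold higher in primed and 3 of 23 were lower, not more than the 16.7% of all genes, with Ung at 48.49 against 128.70 TPM. Mybl2 was 2-fold lower, at 53.98 against 396.35 TPM. Of the CDK inhibitors, Cdkn1a and Cdkn2a were lower in primed, at 95.86 against 241.77 TPM and 12.08 against 37.41 TPM, and Cdkn1c and Cdkn2b were higher.

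Some genes followed the members across the 7 libraries, as Pearson r of log2(TPM + 1). These values are descriptions over 7 points that share their sorting and scaling. Nearest to Ccnd2 were Nfatc1 (0.999), Tmed3 (0.997) and Tcim (0.996). Nearest to Ccnd1 were Rer1 (0.984), Atraid (0.983) and Actr10 (0.979), nearest to Ccnd3 were Lamp1 (0.981), Mme (0.976) and Ctsa (0.975), and nearest to Cdkn1b were Eif3f (0.968), Rheb (0.966) and Gm15987 (0.932). All were picked for the highest r, which does not reflect the size of a change. Rheb ranged only from 99.67 to 116.36 TPM, and Cdkn1b from 20.48 to 61.71 TPM. Among the members themselves, Ccnb1 and Ccne1 were closest, at 0.93, and Ccnb1 and Rb1 were most opposed, at -0.97. Ccnd2 and Ccnb1 were at -0.81.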

How the data were processed

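RNA of 7 libraries was made with a TruSeq RNA kit, and per the submitters' processing notes the reads were aligned with Bowtie to mm10 and quantified with RSEM (versions not given in the sources used here). The deposited tables hold, per Ensembl gene, the authors' expected counts, the TPM and FPKM that the authors' RSEM run derived from them, and gene and effective lengths. Whether counting used strand is not given. Groups came from the labels, with 1 library each, so no test was run and depth limits the values as the intervals show. Symbols, coordinates and exon overlaps came from GENCODE M21, and promoter windows from RefSeq.

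Differences were taken on log2(TPM + 1), so those of low genes are understated. Ratios are of TPM, with exact Clopper-Pearson intervals. These used the expected counts as whole numbers after rounding, while levels in the plots have exact Poisson intervals. Alternatives were FPKM, a pseudocount of 0.1, a minimum of 5 TPM, rescaling by median-ratio size factors over 14633 genes and, chosen after seeing the data, expected counts scaled to the library total (CPM). Scripts ran under Python 3.11.15 with scipy 1.17.1, pandas 2.3.3 and numpy 2.4.6, and plots were drawn with matplotlib 3.10.9. The members and gene lists were chosen with earlier results of these data known. Pathway genes were named in the comparisons whose lists are described. Among CDKs and their regulators, inhibitors and RB and E2F genes, those 2-fold apart were named. Examples came from the extremes of the other lists. Cdk4 and, beside Ccne1, Cdkn1a were named outside this rule. Nearest genes were the 3 with the highest r for Ccnd1, Ccnd2, Ccnd3 and Cdkn1b, among genes at 10 TPM or more in any library.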

Additional observations from a re-analysis of the deposited data

Results flagged for a closer look

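For 4 members the difference between 5C and mES medium had opposite signs in GFP-positive and GFP-negative cells, with 1 library behind each value, and the difference between the fractions was not tested. Ccnd2 was higher in 5C medium by 2.40 on the log2(TPM + 1) scale among GFP-positive cells and lower, at -1.30, among GFP-negative cells, which are 3.71 apart. Ccne1 differed by -0.52 and 0.62, a gap of -1.14. Ccne2 differed by -1.16 and 0.41, a gap of -1.57, and rested on 44 reads in 5C-Oct4GFP+. Without the length correction (CPM) these values were -2.10 and 0.36, farther apart. Ccnb1 differed by -0.10 and 1.22, a gap of -1.32. In CPM these values were -0.00 and 1.44, so without the length correction Ccnb1 had almost no difference among GFP-positive cells. Read by medium instead, the difference of Ccne2 between GFP-positive and GFP-negative cells was 0.43 in mES and -1.14 in 5C medium, 1.57 apart and likewise not tested, and in CPM 1.03 and -1.43. Each such gap uses the same 4 libraries.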

How the results depend on the processing

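The number of members 2-fold apart stayed within 1.5 times its value in all 8 comparisons with FPKM, a pseudocount of 0.1, a minimum of 5 TPM or median-ratio rescaling. With CPM, chosen after seeing the data, it did so in 7. Primed against 5C-Oct4GFP+ then had 4 members in place of 2, since Ccnd2 went from 0.96 to 1.01 and Rb1 from -0.05 to -1.14. No called difference changed sign. Of 80 member differences, 24 moved beyond their counting interval with median-ratio rescaling, 18 with CPM, 8 with FPKM and 4 with the lower pseudocount. Median-ratio rescaling moved the median of all genes from -0.15 to -0.01 in mES-Oct4GFP+ minus mES-Oct4GFP-, from -0.25 to -0.05 in 5C-Oct4GFP+ minus 5C-Oct4GFP-, from -0.10 to 0.01 in naive minus 5C-Oct4GFP+ and from 0.14 to -0.03 in primed minus naive. Rb1 in 5C-Oct4GFP+ minus 5C-Oct4GFP- went from -1.30 to -0.94 with CPM, and Ccne2 in mES-Oct4GFP+ minus mES-Oct4GFP- from 0.43 to 1.03. Ccne2 had 44 to 216 reads and Ccnd2 as few as 20, which sets their wider intervals. No paired analysis was possible because each group held 1 library.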

Other observations

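Outside the 10 genes, the 2 primed cultures differed in their CDK inhibitors. Of 5 detected, 3 were 2-fold lower in 5C-Oct4GFP+ (primed) than in R1 ESCs-primed, beside 5.09% of all genes, with Cdkn2a at 12.08 against 73.49 TPM, Cdkn1c at 13.25 against 58.82 and Cdkn2b at 19.63 against 55.54. No gene of the lists of CDKs, RB and E2F genes, other cyclins, ubiquitin ligases, G1/S targets or G2/M genes was 2-fold apart there. The fibroblast marker sums in these libraries were 100 and 254.3 TPM, and their part in the inhibitor levels was not tested.

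In 5C-Oct4GFP+ against mES-Oct4GFP+, 3 of 11 RB and E2F genes were 2-fold higher, beside 13.7% of all genes, namely E2f4 at 205.31 against 85.46 TPM, E2f7 at 15.99 against 6.12 and E2f8 at 36.36 against 15.26, and Rbl2 was lower, at 6.13 against 13.62, beside 13.5% of all genes. Cdc25b, at 32.91 against 15.93 TPM, and Cdkn1c, at 12.90 against 3.30 TPM, were higher, and Cdkn1a was lower, at 134.84 against 296.16 TPM. Mybl2 was highest of all libraries in 5C-Oct4GFP+, at 736.37 TPM against 360.32 in mES-Oct4GFP+.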
